A study of Mus musculus with 16 samples.

Results

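Nonsense-mediated decay (NMD) is a surveillance pathway that removes mRNAs on which translation stops too early. The helicase Upf1 is its central enzyme. Upf2 and the paralogs Upf3a and Upf3b link Upf1 to the exon junction complexes left on the mRNA by splicing, the kinase Smg1 with its partners Smg8 and Smg9 phosphorylates Upf1, and phosphorylated Upf1 recruits the endonuclease Smg6 and the adaptor Smg5, which leads to decapping and deadenylation. Besides faulty transcripts, the pathway limits a set of normal mRNAs, and several of its factors are themselves encoded by such mRNAs.

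The 9 genes Upf1, Upf2, Upf3a, Upf3b, Smg1, Smg5, Smg6, Smg8 and Smg9 were chosen by their GENCODE M21 symbol and followed in mouse CD8+ T cells edited at Tardbp. The product of Tardbp, TDP-43, binds RNA, regulates splicing and is known for its preference for repeats of U and G. All 9 were among the 55536 annotated genes of the count table, and all 9 passed the filter on low counts that left 16650 genes to test. Their lowest count in any library was 1307, for Upf2.

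CD8+ T cells of OT-I mice, whose transgenic receptor recognises the ovalbumin peptide SIINFEKL, had been electroporated with Cas9 and either a scrambled guide RNA (Control gRNA, 8 libraries) or a guide against Tardbp (Tardbp gRNA, 8 libraries). The cells of both groups were transferred into C57BL/6J hosts, which received antigen together with agonist antibodies to OX40 and 41BB. CD8+ cells with the surface markers of the OT-I donors were then sorted from spleen and lymph nodes. This was at day 4 by the labels (slightly earlier by the methods). Edited cells were a bulk population, not a clone, and the labels give no age and do not say which animal each library came from, so p-values measure the spread between libraries. A letter M or F per library is deposited under the header sex. M is given for 3 of 8 Control gRNA and 5 of 8 Tardbp gRNA libraries.

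The libraries held 56016533 to 94801105 estimated counts in annotated genes. The TMM-scaled CPM (counts relative to the library size) of Tardbp was 171.8 to 206.9 in controls, with a median of 198.4, and 110.4 to 147.2 in Tardbp gRNA, with a median of 136.4. All 8 Tardbp gRNA libraries lay below all controls (log2 fold change −0.51 ± 0.06 SE, edgeR adjusted p = 8.07e-07). The 8 CD8 T cell markers summed to 3945 to 4731 CPM in controls and 5487 to 6873 in Tardbp gRNA, and all 8 passed the test as higher. Markers of CD4 T cells (3.30 to 12.5 against 4.86 to 9.37 CPM) and B cells (6.54 to 12.8 against 7.53 to 19.0 CPM) stayed low. Those of red cell precursors summed to 0.437 to 16.6 CPM and 9.22 to 185.4 CPM, with all 4 tested genes higher, and those of myeloid cells to 24.5 to 43.5 CPM and 32.3 to 93.4 CPM, with 2 of 7 higher. Of all genes tested 23.5% were higher, so 2 of 7 myeloid markers is near that share. The part of these other cells in the results was not tested, and in sorted bulk samples fewer cells of a type and less RNA per cell cannot be told apart. The deposited RNA concentration, given without a unit, was 34.9 to 197.1 in controls and 10.1 to 24.0 in Tardbp gRNA, with no overlap, so the effect of the guide and that of RNA input cannot be told apart from the libraries alone.

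Stretches of 4 transcripts carry the isoform results below and are shown here from the GENCODE M21 transcripts (GRCm38, in the sense of the mRNA, 5′ to 3′). The Upf1 exon is exon 7 of 24 of Upf1-201, chr8:70339982-70340099 on the minus strand, and its capitals mark the 33 bases at its 3′ end that Upf1-202 lacks. They leave the reading frame open, with a coding length of 3372 bases against 3339. The Smg5-205 exon, chr3:88340720-88340858 on the plus strand, is the first exon of a non-coding transcript and lies inside intron 1 of the main transcript Smg5-201, and its capitals mark a run of 15 alternating G and T. In the Smg1 and Smg9 stretches, the lower case is the end of an exon of the main transcript and the capitals are the first 30 bases of the intron into which Smg1-206 and Smg9-205 run on. These lie at chr7:118198161-118198220 on the minus strand, after exon 10 of 63 of Smg1-201, and at chr7:24407604-24407663 on the plus strand, after exon 6 of 14 of Smg9-201. The capitals of the Upf1, Smg1 and Smg9 stretches all begin with GT, the letters of a 5′ splice site.
Upf1 exon: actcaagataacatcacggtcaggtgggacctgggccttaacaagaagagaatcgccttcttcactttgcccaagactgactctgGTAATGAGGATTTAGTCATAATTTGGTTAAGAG
Smg5-205 first exon: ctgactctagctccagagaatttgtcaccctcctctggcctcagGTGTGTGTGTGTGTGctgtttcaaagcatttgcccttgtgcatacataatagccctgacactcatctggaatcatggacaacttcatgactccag
Smg1-206 into the intron: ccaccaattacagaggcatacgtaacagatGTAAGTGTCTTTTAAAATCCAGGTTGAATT
Smg9-205 into the intron: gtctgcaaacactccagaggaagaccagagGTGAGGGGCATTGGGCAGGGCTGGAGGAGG

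The first question was whether RNA of the NMD factors differed between the groups. Upf1, Smg5 and Smg8 were lower and Upf3b and Smg1 higher in Tardbp gRNA, while Upf2, Upf3a, Smg6 and Smg9 did not pass the test. Thus 5 of 9 genes were called, 2 higher and 3 lower, at an edgeR quasi-likelihood adjusted p under 0.05. Of all genes tested 46.7% were called (23.5% higher and 23.3% lower), so the share of members called is near that of all genes. The median log2 fold change of the members was 0.11, beside 0.05 for all genes. In none of the 9 were the groups fully apart, as they were for 16.9% of all genes.

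**Figure D1:**
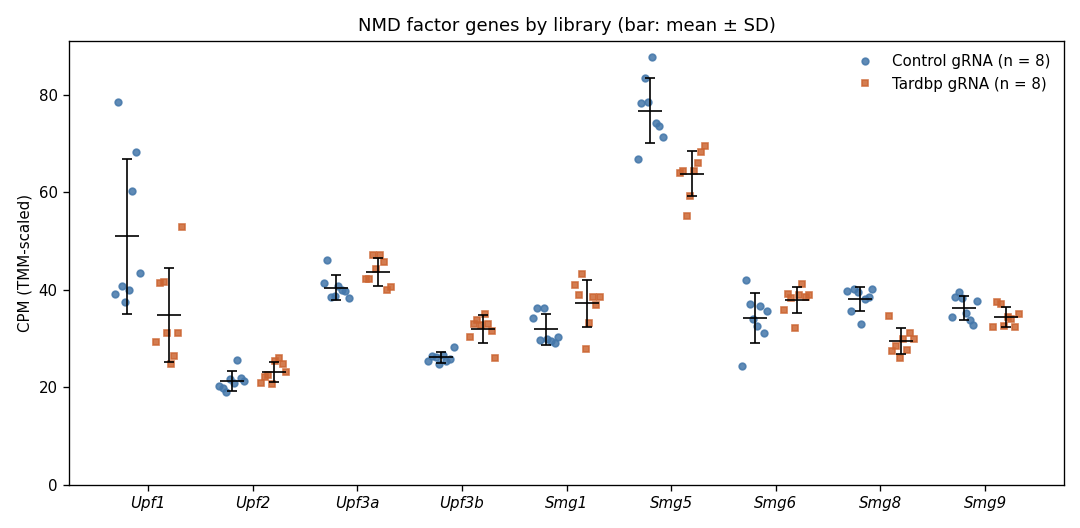
CPM (TMM-scaled) of the 9 NMD factor genes in each of 8 Control gRNA (circles) and 8 Tardbp gRNA (squares) libraries, with the mean and SD of each group as bars. Smg8 and Smg5 sit lower and Upf3b higher in most Tardbp gRNA libraries, and Upf1 is spread widely in both groups, from 37.4 to 78.5 and from 24.7 to 52.9 CPM.

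Upf1 lies on chromosome 8 (chr8:70331525-70353278, minus strand). Its level was 37.4 to 78.5 CPM in controls, with a median of 42.0, and 24.7 to 52.9 CPM in Tardbp gRNA, with a median of 31.1. Of the Tardbp gRNA libraries, 5 were below every control, but Tardbp 8, at 52.9 CPM, was above the median control. The means were 51.0 ± 15.8 and 34.8 ± 9.62 CPM (SD, n = 8 each), so the log2 fold change was −0.55 ± 0.18 SE, at an adjusted p of 0.0189 by edgeR. It was the largest change in size among the 9.

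Upf1 also varied more between libraries of a group than the other members did. Its coefficient of variation was 31.1% in controls and 27.6% in Tardbp gRNA, above 97.7% and 97.0% of the 2067 genes within 0.5 log2 CPM of its level, whose medians were 9.64% and 9.34%. The other members had 4.17% to 15.2%. This spread moved with how far a library's values depended on the GC content of the transcripts, a measure chosen after the spread of Upf1 was seen. For each library, it is the correlation, across 7516 genes over 16 CPM, of the deviation of log2 CPM from the mean of all libraries with the GC content of the main transcript. The measure ran from −0.09 to 0.06 among controls and from −0.08 to 0.12 with the Tardbp guide.

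Within Tardbp gRNA, log2 CPM of Upf1 rose with this measure (Pearson r = 0.934, exact permutation p = 0.00253, adjusted 0.00506 over the 2 groups; Spearman rho = 0.976, p = 0.000397, adjusted 0.000794; n = 8). Within controls, r was 0.683 (exact permutation p = 0.0756, adjusted 0.0756) and rho 0.833 (p = 0.0154, adjusted 0.0154; n = 8). Without the 2 libraries farthest from the median of the measure, r was 0.967 and 0.847 over 6 libraries each. With the measure as a covariate, Upf1 was lower by more, at a log2 fold change of −0.76 (adjusted p = 4.21e-05). In that fit 4 of the 9 genes were called by edgeR, since Smg1 did not pass (0.19, adjusted p = 0.0835). Of all genes 45.4% were called in it, so the share of members is near that of all genes. Since the measure was chosen after the spread of Upf1 was seen, the p-values for Upf1 with it are descriptive only. The main transcript, Upf1-202, has a GC content of 58.0%, beside a median of 49.7% over the main transcripts of 16640 tested genes. Smg9, at 60.3%, and Smg5, at 56.5%, had no such spread, with coefficients of variation of 5.92% to 8.75%.

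**Figure D2:**
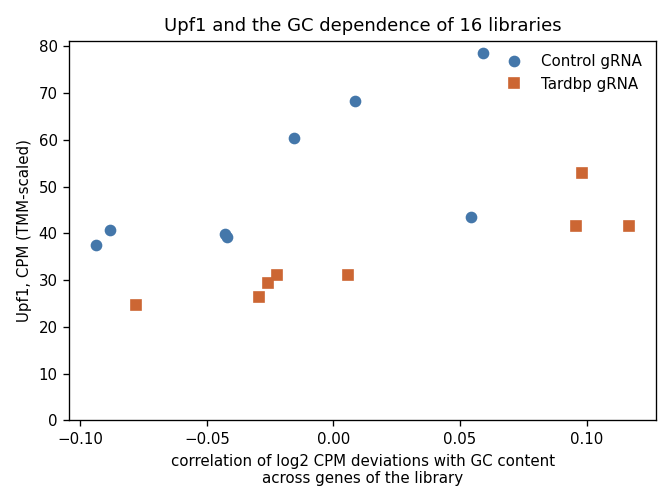
CPM of Upf1 in 16 libraries (vertical axis) against the correlation, across genes, of each library's log2 CPM deviations with transcript GC content (horizontal axis, no unit). Upf1 is higher in the libraries further to the right in both groups, and the Tardbp gRNA squares lie below the Control gRNA circles at like positions, with r = 0.934 within Tardbp gRNA and 0.683 within Control gRNA.

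The pattern of Upf1 over the 16 libraries was most like those of Stard7 (Pearson r of log2 CPM 0.946), Taf5l (0.944) and Paxip1 (0.942), given as a description. The choice used the difference between the groups as well as the spread within them, and the log2 fold changes of the 3 were −0.25, −0.31 and −0.40. Stard7 encodes a lipid transfer protein, Taf5l a subunit of transcription coactivator complexes and Paxip1 a protein of the DNA damage response.

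The Upf2 and Upf3 genes encode the link between Upf1 and the exon junction complex. Upf3b (chrX:37091678-37110322, minus strand) was 24.8 to 28.3 CPM in controls, with a median of 26.0, and 26.0 to 35.1 CPM in Tardbp gRNA, with a median of 32.8. All Tardbp gRNA libraries but Tardbp 8, at 26.0 CPM, lay above every control. The difference on the log2 scale was 0.29 ± 0.06 SE, and edgeR gave an adjusted p of 0.000372.

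Its paralog Upf3a (chr8:13785615-13799193, plus strand) did not pass the test. It was 38.3 to 46.1 CPM in controls (median 39.9) and 39.9 to 47.1 CPM in Tardbp gRNA (median 43.3), with a log2 fold change of 0.11 ± 0.05 SE and an edgeR adjusted p of 0.0924. The groups overlapped over most of their range, and without Control 2, the highest control at 46.1 CPM, the adjusted p was 0.0281. That was the only 1 of 16 omissions of a single library in which Upf3a passed (edgeR adjusted p up to 0.361). Upf2 (chr2:5951469-6056703, plus strand) was 19.0 to 25.7 CPM in controls (median 21.1) and 20.6 to 25.9 CPM in Tardbp gRNA (median 22.8), with a log2 fold change of 0.12 ± 0.07 SE and an edgeR adjusted p of 0.159. Here the highest control, Control 6 at 25.7 CPM, was exceeded by 1 Tardbp gRNA library, and without Control 6 the adjusted p was 0.0445. Upf2 too passed in only this 1 of 16 omissions (edgeR adjusted p up to 0.451).

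Of the 3 genes of the Smg1 kinase complex, Smg8 was lower, Smg1 was higher with a call that depended on single libraries, and Smg9 did not pass. Smg8 (chr11:87077732-87086774, minus strand), a regulator of the kinase, was 32.9 to 40.2 CPM in controls, with a median of 39.1, and 25.9 to 34.6 CPM in Tardbp gRNA, with a median of 29.2. All Tardbp gRNA libraries but Tardbp 1, at 34.6 CPM, were below every control, and the log2 fold change was −0.37 ± 0.06 SE (edgeR adjusted p = 6.39e-05). Smg8 thus had the lowest adjusted p of the 9 genes.

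Smg1 itself (chr7:118131308-118243670, minus strand), the kinase, was 29.1 to 36.4 CPM in controls, with a median of 30.1, and 27.8 to 43.3 CPM in Tardbp gRNA, with a median of 38.5. Of the Tardbp gRNA libraries, 6 were above every control and Tardbp 4 was below every control. This gave a log2 fold change of 0.22 ± 0.08 SE (adjusted p = 0.0327 by edgeR). This call was the least stable of the 5: leaving out single libraries gave adjusted p-values from 0.00819 to 0.112, under 0.05 in 5 of 16 cases. It was lost without any one of Control 3, 5, 6, 7 and 8 or Tardbp 1, 2, 3, 6, 7 and 8, and was kept without any one of the others.

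Smg9 (chr7:24399619-24422778, plus strand), the third subunit, was 32.8 to 39.5 CPM in controls (median 36.4) and 32.3 to 37.5 CPM in Tardbp gRNA (median 34.2). The ranges overlapped nearly completely, and the log2 fold change of −0.08 ± 0.05 SE did not pass the test (edgeR adjusted p = 0.248).

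Of the factors that act on phosphorylated Upf1, Smg5 (chr3:88336260-88362338, plus strand) was 66.9 to 87.7 CPM in controls, with a median of 76.3, and 55.2 to 69.5 CPM in Tardbp gRNA, with a median of 64.4. Of the Tardbp gRNA libraries, 6 lay below every control, of which Control 1 was the lowest. The log2 fold change was −0.27 ± 0.06 SE (edgeR adjusted p = 0.00119). The nuclease Smg6 (chr11:74925823-75164448, plus strand) was 24.3 to 42.0 CPM in controls (median 34.9) and 32.1 to 41.1 CPM in Tardbp gRNA (median 38.8), all within the range of the controls. Its log2 fold change was 0.15 ± 0.09 SE with an edgeR adjusted p of 0.168. As the libraries are not stranded, reads from where Srr overlaps Smg6 on the opposite strand may not be told apart. Srr had 610 to 1312 counts, and the other genes that overlap a member had at most 273 counts.

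Per transcript length (TPM), the order of levels in controls was Smg5 (32.7 ± 3.62 SD, n = 8), Upf3a (32.3 ± 2.30), Smg9 (28.0 ± 2.32), Smg8 (19.5 ± 1.22), Upf1 (18.5 ± 6.08), Upf3b (18.4 ± 0.96), Smg6 (10.0 ± 1.68), Upf2 (6.80 ± 0.67) and Smg1 (4.53 ± 0.55). Neighbours whose ranges overlapped were Smg5 and Upf3a, Upf3a and Smg9, Smg8 and Upf1, Upf1 and Upf3b, and Smg6 and Upf2. In Tardbp gRNA the order began with Upf3a (33.6 ± 2.09), Smg5 (27.0 ± 2.1), Smg9 (25.9 ± 1.97) and Upf3b (21.5 ± 1.97). Smg8 (14.4 ± 1.47), Upf1 (12.1 ± 3.41), Smg6 (10.8 ± 1.04), Upf2 (7.09 ± 0.62) and Smg1 (5.32 ± 0.95) followed. Here Upf3a lay above Smg5, and Upf3b above Smg8, in all 8 libraries with no overlap of their ranges.

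With the RNA concentration as a covariate, only Smg8 stayed below an adjusted p of 0.05 among the 9, at a log2 fold change of −0.39 (edgeR adjusted p = 0.0458). Upf1 then had −0.18 (0.806), Smg5 −0.36 (0.062), Smg1 0.39 (0.138) and Upf3b 0.15 (0.437), and Smg6 changed sign, to −0.11 (0.719). In that fit 2697 of all genes (16.2%) were called. Since RNA concentration did not overlap between the groups, the fit cannot tell the effect of the guide from that of RNA input. The letter M or F of each library, deposited under the header sex, was M in 3 of 8 Control gRNA and 5 of 8 Tardbp gRNA libraries. With this letter as a covariate, Upf1 had −0.44 (edgeR adjusted p = 0.0575) and Smg1 0.20 (0.0625), so neither passed. Upf3b, Smg5 and Smg8 stayed called, 3 of 9, beside 44.2% of all genes. No member had an interaction of group and letter that passed the test, nor of group and library numbers 1 to 3 against 4 to 8, a division known from earlier results, the lowest unadjusted p being 0.171. With libraries 4 to 8 alone, Smg1 was not called (0.17, adjusted p = 0.196) and the other 4 genes were, beside 40.8% of all genes. With libraries 1 to 3 alone none of the 9 was called by edgeR (3 at an unadjusted p under 0.05), and neither were most genes, 10.1% being called, while the log2 fold changes of the 5 genes kept their direction.

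**Figure D3:**
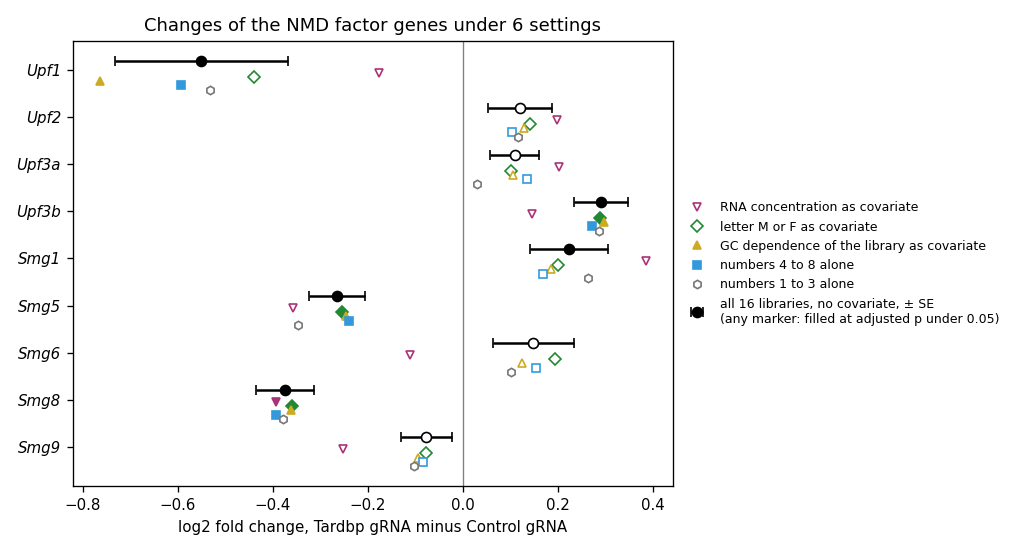
Log2 fold change of the 9 genes (horizontal axis, Tardbp gRNA minus Control gRNA) over all 16 libraries with its SE (black circles) and under 5 other settings (coloured markers), filled where the adjusted p was under 0.05. Smg8 stays between −0.36 and −0.39 in every setting shown, while Upf1 runs from −0.76 with GC dependence as a covariate to −0.18 with RNA concentration.

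The next comparison was of single transcripts. Of 45 annotated transcripts of the 9 genes, 27 passed the filter and 6 were called, 3 higher and 3 lower, by edgeR at an adjusted p under 0.05. Of all 40897 transcripts tested 16.6% were called. Lower were the main transcripts of Smg8, Smg5 and Smg9. Higher were the main transcript of Upf3b, Smg1-206 and Smg5-205. Smg5-201 (protein coding) was 57.1 to 72.8 CPM in controls, with a median of 61.8, and 36.8 to 56.1 CPM in Tardbp gRNA, with a median of 50.6. The groups did not overlap (log2 fold change −0.35 ± 0.08 SE, edgeR adjusted p = 0.00432), as for 5.77% of all transcripts.

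Smg5-205, the non-coding transcript that starts in the exon with the GT run shown above and ends in exon 7 of 22 of Smg5-201, moved the other way. It had 0 to 20 counts per library in controls and 23 to 48 in Tardbp gRNA, which is 0 to 0.226 CPM (median 0.107) and 0.287 to 0.534 CPM (median 0.481). All 8 Tardbp gRNA libraries were above all controls, and the log2 fold change was 2.05 ± 0.48 SE (adjusted p = 0.00658 by edgeR). Its share of the counts of Smg5 was 0 to 0.296% in controls and 0.544 to 0.816% in Tardbp gRNA, again without overlap (limma adjusted p = 0.000948). That share is small, and at these counts its exact size is uncertain. The median count of Smg5-205 in controls was 8, below the minimum count of 10 in the filter. All 8 Tardbp gRNA libraries exceeded that minimum. Smg5-205 was therefore kept for testing through the group where it is high, and its p-values are descriptive only.

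The run of 15 bases in the Smg5-205 exon contains TGTGTGTGTGTG. These letters, searched on the strand of the transcript, were found in 6 (0.0524%) of the 11454 tested transcripts whose first exon has 100 to 200 bases, and in the first exon of 451 (1.1%) of the 40886 tested transcripts with a sequence. The search was chosen after the sequence was seen. The shorter TGTGTG, which the longer motif contains, was found in the main transcripts of 5 of the 9 genes, 6 times in Smg1, 3 in Upf1, 2 in Smg5 and 1 each in Smg6 and Smg8, counting overlapping matches. It was present in 63.3% of the main transcripts of 16640 tested genes, and in 88.4% of the 4525 within 0.5 log2 of the length of Upf1-202. A match is no evidence of binding.

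The 2 intron read-through transcripts shown above are annotated as retained introns. Smg1-206 was 0.248 to 0.797 CPM in controls (median 0.457) and 0.379 to 1.49 CPM in Tardbp gRNA (median 1.04), 6 of 8 libraries being above every control. It passed the test (log2 fold change 1.10 ± 0.29 SE, edgeR adjusted p = 0.0139). Smg9-205 was 0.955 to 2.24 CPM in controls (median 1.79) and 1.49 to 3.49 CPM in Tardbp gRNA (median 2.64), with a log2 fold change of 0.56 ± 0.20 SE, which did not pass (edgeR adjusted p = 0.0652). The main transcript Smg9-201 was 32.5 to 36.0 CPM in controls and 28.4 to 32.7 in Tardbp gRNA, 6 of 8 libraries being below every control (log2 fold change −0.18 ± 0.05 SE, edgeR adjusted p = 0.0308). The gene total of Smg9 did not pass, and the call of Smg9-201 was lost with no filter on low counts (adjusted p = 0.0648) and with libraries 4 to 8 alone.

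Of the 13 retained intron transcripts of the 9 genes that were tested, 10 had a log2 fold change above 0 and 1, Smg1-206, was called by edgeR. Their median was 0.40. Over all 8880 retained intron transcripts tested, 12% were called, 67% had a value above 0 and the median was 0.24. The remaining called transcripts were Smg8-201 (log2 fold change −0.42 ± 0.07 SE, edgeR adjusted p = 0.000703) and Upf3b-201 (0.21 ± 0.07 SE, adjusted p = 0.0435), the main transcripts of genes that were called in the same direction. The call of Upf3b-201 was lost with size factors in place of TMM (adjusted p = 0.0854) and with no filter (0.107). The main transcripts of Upf1, Upf2, Upf3a, Smg1 and Smg6 did not pass, with adjusted p-values of 0.467, 0.594, 0.442, 0.297 and 0.493. With libraries 4 to 8 alone, the calls of Smg1-206, Smg9-201 and Upf3b-201 were lost (edgeR adjusted p = 0.106, 0.106 and 0.322), and those of Smg5-201, Smg5-205 and Smg8-201 held.

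**Figure D4:**
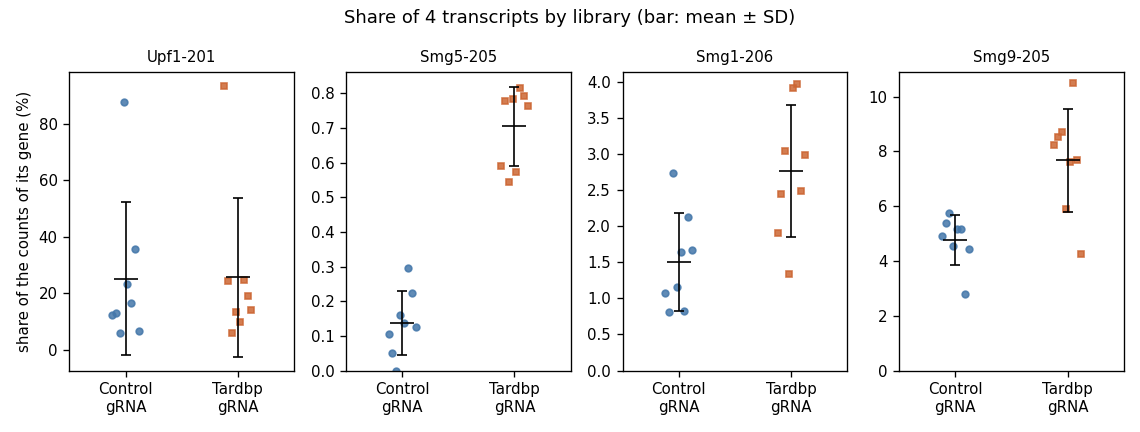
Share of the counts of its gene (vertical axes, percent, each panel on its own scale) taken by Upf1-201, Smg5-205, Smg1-206 and Smg9-205 in 8 Control gRNA (circles) and 8 Tardbp gRNA (squares) libraries, with mean and SD as bars. The groups are apart for Smg5-205 alone, from 0 to 0.296% against 0.544 to 0.816%, and 1 library in each group stands far above the rest for Upf1-201, at 87.7% and 93.4%.

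Upf1 had 2 transcripts, which held all its counts and differ in the 33 bases in capitals above and in 67 bases at the 5′ end. The longer exon belongs to the isoform with the extended regulatory loop in the helicase. The share of Upf1-201, with the 33 bases, was 5.88 to 87.7% in controls (median 14.8%) and 6.11 to 93.4% in Tardbp gRNA (median 16.7%). It exceeded Upf1-202 in 1 library of each group, Control 4 and Tardbp 1. The means of 25.2% and 25.7% differed by less than this spread (limma difference 0.52 percentage points, adjusted p = 0.994). The change of Upf1 could not be assigned to either transcript, with log2 fold changes of −0.57 ± 0.60 SE and −0.60 ± 0.48 SE and edgeR adjusted p-values of 0.602 and 0.467.

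No share of a member's transcript was called at an adjusted p under 0.05 with a difference over 0.1 (10 percentage points), out of 25 tested by limma (5 had an unadjusted p under 0.05). Of all 32777 shares tested 0.635% were called. By the adjusted p alone 3 of the 25 passed, beside 4.42% of all, namely Smg5-205, Smg9-205 and Smg9-201. The share of Smg9-201 was 92.0 to 95.8% in controls and 85.6 to 92.8% in Tardbp gRNA, with means of 93.3 ± 1.16% and 89.7 ± 2.14% (SD, n = 8; limma adjusted p = 0.0251), and 7 of 8 Tardbp gRNA libraries were below every control. The share of Smg9-205 was 4.77 ± 0.91% and 7.68 ± 1.90% (SD, n = 8; limma adjusted p = 0.0361), 7 of 8 libraries being above every control. Both differences, −3.59 and 2.91 percentage points, are below the size that was required.

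Inclusion of exons was read from Psi, the fraction of reads that include a node, given as 1 value per group. The table held 168 core exon nodes of the 9 genes, and none differed by over 0.1 between the groups. Of all 125520 nodes 4.7% did, but these include types other than core exons, so the comparison is not like for like. In 146 of the 168, Psi was over 0.9 in both groups. At a difference over 0.05, which 9.65% of all nodes of any type passed, there were 3. They are an exon of 110 bases of Smg1 at chr7:118156860-118156969 (Psi 0.948 in controls and 0.868 in Tardbp gRNA), an exon of 143 bases of Smg1 at chr7:118182744-118182886 (0.962 and 0.910) and an exon of 62 bases of Smg6 at chr11:74981852-74981913 (0.881 and 0.945). These have no replicates and no test here.

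The median difference in size was 0.014 over the 60 nodes of Smg1 and 0.019 over the 20 of Upf2. It was 0.006 for all 168 nodes and 0.005 for all nodes of any type in the table. In Upf3a, Smg8 and Smg9 no node differed by over 0.01. Inclusion rebuilt per library from transcript counts could be tested for 5 nodes of Upf1, Upf2, Smg5 and Smg6, and none was called (limma adjusted p from 0.784 to 0.994, 0 at an unadjusted p under 0.05), beside 0.0493% of the 10143 nodes tested. For exon 7 of Upf1, the rebuilt value, which counts the longer form of the exon alone, was 0.249 ± 0.270 in controls and 0.254 ± 0.282 in Tardbp gRNA (SD, n = 8). Psi of that node, at 0.982 and 0.965, does not separate the longer from the shorter form.

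Annotated targets of the pathway were then compared, and beside them retained intron transcripts, a separate class that is not annotated as targets. Their levels were measured apart from the factors and do not measure decay itself. Transcripts of the annotation class nonsense-mediated decay held 1.88 to 2.51% of all counts in controls, with a median of 2.33%, and 1.95 to 2.90% in Tardbp gRNA, with a median of 2.24%. The groups overlapped, and the means of 2.26 ± 0.24% and 2.38 ± 0.38% (SD, n = 8) were not separated by an exact two-sided permutation test (p = 0.436, adjusted 0.436 over 2 classes). Retained intron transcripts held 3.10 to 3.82% in controls (median 3.61%) and 3.68 to 4.49% in Tardbp gRNA (median 4.07%). Their means, 3.56 ± 0.23% and 4.09 ± 0.25% (SD, n = 8), differed by 0.535 percentage points (exact permutation p = 0.000622, adjusted 0.00124). With length-scaled counts the difference was 0.292 percentage points (exact permutation p = 0.0163, adjusted 0.0326).

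Of 2297 single transcripts of the nonsense-mediated decay class, 101 were higher and 47 lower (edgeR, 6.44% called), with a median log2 fold change of 0.07. Among 8880 retained intron transcripts 936 were higher and 127 lower, with a median of 0.24, and among 22063 protein-coding transcripts 1561 were higher and 2847 lower, with a median of −0.06. Over all transcripts 3475 were higher and 3330 lower, with a median of 0.06.

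**Figure D5:**
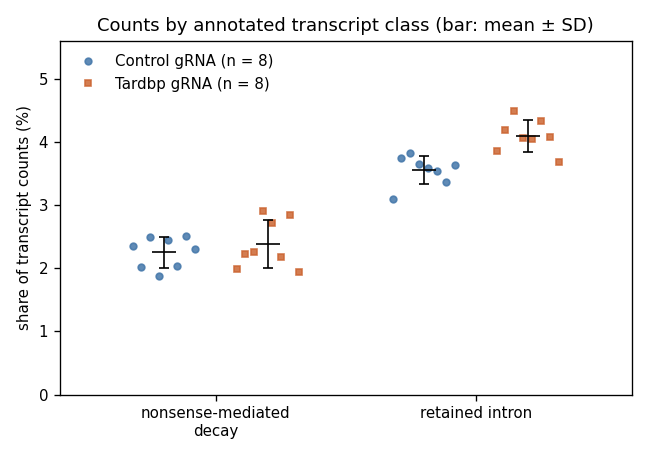
Share of all transcript counts (vertical axis, percent) in transcripts annotated as nonsense-mediated decay or retained intron in 8 Control gRNA (circles) and 8 Tardbp gRNA (squares) libraries, with mean and SD as bars. The groups overlap for nonsense-mediated decay, at 1.88 to 2.51% and 1.95 to 2.90%, and retained introns are higher in Tardbp gRNA, at 3.68 to 4.49% against 3.10 to 3.82%.

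Of 13 genes described as NMD targets in other cells, 4 were higher and 1 lower, 38.5% being called beside 46.7% of all genes, with a median log2 fold change of 0.01. Higher were the growth arrest genes Gadd45a (1.08 ± 0.40 to 3.13 ± 0.81 CPM, SD, n = 8; log2 fold change 1.53 ± 0.23 SE, edgeR adjusted p = 2.33e-05) and Gadd45b (24.1 ± 2.52 to 37.9 ± 4.76 CPM; 0.65 ± 0.08 SE, 4.27e-06), whose groups did not overlap. The stress factor Ddit3 (0.64 ± 0.12 SE, adjusted p = 0.00024) and the acetyltransferase gene Nat9 (0.51 ± 0.10 SE, 0.000268) were higher with overlapping groups. Tbl2 was lower in all 8 Tardbp gRNA libraries than in any control (61.5 ± 5.43 to 38.1 ± 6.53 CPM; −0.69 ± 0.09 SE, 5.98e-06). The small nucleolar RNA host genes of the list did not pass, with Gas5 at a log2 fold change of 0.01 (0.919), Zfas1 at 0.10 (0.275), Snhg1 at −0.05 (0.646), Snhg5 at −0.07 (0.394), Snhg12 at −0.01 (0.983) and Snhg15 at 0.21 (0.0597), nor did Atf4, at −0.09 (0.114), and Atf3, at −0.19 (0.874).

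Of 11 other factors of NMD and translation termination, 10 (90.9%) were called by edgeR, 2 higher and 8 lower, beside 46.7% of all genes (23.5% higher and 23.3% lower), with a median log2 fold change of −0.37 beside 0.05. The lowest values were those of Gspt2, a termination factor at a low level (0.540 ± 0.111 to 0.252 ± 0.197 CPM, SD, n = 8; −1.09 ± 0.36 SE, adjusted p = 0.0194), and Nbas (21.3 ± 2.86 to 13.9 ± 3.49 CPM; −0.62 ± 0.14 SE, 0.00105). The groups of both genes overlapped. Gspt2 ran from 0.363 to 0.670 CPM in controls and from 0.101 to 0.699 CPM in Tardbp gRNA. Pnrc2 (0.21 ± 0.06 SE, 0.00752) and the cap-binding gene Ncbp2 (0.15 ± 0.05 SE, 0.0242) were higher, and Pabpc1, for the main poly(A)-binding protein, did not pass (0.08 ± 0.05 SE, 0.21).

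Of 10 exon junction complex genes, 5 (50%) were called by edgeR, near the 46.7% of all genes, 2 higher and 3 lower, with a median log2 fold change of −0.06. The core helicase gene Eif4a3 was lower in all 8 Tardbp gRNA libraries than in any control (446.8 ± 22.7 to 385.5 ± 12.3 CPM, SD, n = 8; −0.21 ± 0.03 SE, adjusted p = 5.74e-05). Rnps1 (−0.19 ± 0.04 SE, 0.000421) and Acin1 (−0.17 ± 0.05 SE, 0.0142) were lower too. Sap18 (0.17 ± 0.04 SE, 0.00298) and Pym1, which takes the complex apart during translation (0.21 ± 0.06 SE, 0.0104), were higher.

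Among the genes that carry out decay, 8 of 10 (80.0%) of decapping and 5′ to 3′ decay were called by edgeR, 1 higher and 7 lower, beside 46.7% of all genes (23.3% lower), with a median of −0.23. The decapping scaffold Edc4 (−0.55 ± 0.06 SE, adjusted p = 1.68e-06) and Patl1 (−0.41 ± 0.06 SE, 3.99e-05) were lowest, without overlap of the groups, and Lsm1 was higher (0.20 ± 0.05 SE, 0.00431). Of 14 deadenylation genes 10 (71.4%) were called, 2 higher and 8 lower, with a median of −0.16. There the scaffold Cnot1 fell by 0.78 on the log2 scale (± 0.08 SE, adjusted p = 6.19e-07) and the poly(A) nuclease Parn by 0.49 (± 0.05 SE, 2.18e-07), while Pan3 (0.49 ± 0.09 SE, 0.000152) and Cnot6l (0.33 ± 0.06 SE, 0.000122) were higher. Of 17 exosome and Ski complex genes 9 (52.9%) were called, near the share of all genes, all 9 being lower, with a median of −0.14, the lowest being Ttc37 (−0.84 ± 0.08 SE, 2.86e-07) and Dis3l (−0.57 ± 0.06 SE, 9.33e-07).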

How the data were processed

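RNA of sorted CD8+ T cells (8 Control gRNA and 8 Tardbp gRNA libraries, SMART-Seq v4 with Nextera XT, not stranded) was sequenced in pairs of 100-base reads. The authors, per the labels, used HISAT2 2.1.0 with mm10 for alignment and deposited estimated counts per gene and transcript made with StringTie 2.1.0, with no normalization. The values were whole numbers as given. A count is not a molecule, since PCR copies are counted. The authors also deposited Psi from Whippet as a fraction, 1 value per group, and which column is which group was read from the study's text. Deposited columns of the authors' own comparison (the Psi difference and its probability) were not used. RNA concentration is a deposited score without a unit, and a letter M or F is given per library under the header sex. Of each count table, 10 columns named for no sample of this series were left aside, and lines without a gene, 0.0836 to 0.132% of counts, were left out. Names, exons and sequences are those of GENCODE M21 (GRCm38).

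Tests of genes and transcripts used edgeR 4.0.16 in R 4.3.3 (quasi-likelihood test, TMM, filterByExpr with minimum count 10, minimum total 15 and proportion 0.7), two-sided, with Benjamini-Hochberg adjustment over all features and a threshold of 0.05. SE is the log2 fold change over the root of the F statistic. TPM is from length-scaled counts. Shares of transcripts and rebuilt exon inclusion (mean count over 50) were tested with limma 3.58.1, at a difference over 0.1. Percents of counts were compared by exact permutation over 12870 arrangements (smallest p 0.000155) in Python 3.11.15 with SciPy 1.17.1. Log2 CPM used a prior count of 2. DESeq2 1.42.0 was an alternative. The fits were tested on simulated data.

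The members and lists were chosen with earlier results of these data known. One gene of the list of other NMD and termination factors is not reported here and was left out of its counts. Named are the 9 members and Tardbp, their called transcripts with the main transcript of each, the 2 highest and 2 lowest called genes of each other list, any called gene of the exon junction and NMD target lists, and the 3 genes most like Upf1. Other genes and transcripts were named after their values were seen. The GC measure and the TG search were also chosen after seeing the data.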

Additional observations from a re-analysis of the deposited data

Results flagged for a closer look

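A gap test for a single library far from the other 7 of its group (Dixon's 95% limit, which chance passes in about 1 of 20 groups) was run on the 9 genes, their called and main transcripts, the levels and shares of the 4 transcripts shown above, and the 2 transcript classes, 56 tests in all. It singled out Upf2 in Control 6, at 25.7 CPM beside 19.0 to 21.8 CPM in the other controls, and Upf3a in Control 2, at 46.1 CPM beside 38.3 to 41.5 CPM. Each gene passed the test as higher in Tardbp gRNA without that library, its highest control, as given above. This was the only 1 of 16 omissions of a single library in which it passed. Among the others the edgeR adjusted p reached 0.451 for Upf2 and 0.361 for Upf3a. Since the libraries left out were picked from the same values, these 2 calls are descriptive only. It also singled out Smg5-201 in Control 5, at 72.8 CPM, and in Tardbp 3, at 36.8 CPM. The groups of Smg5-201 do not overlap with these libraries in place.

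The widest gaps were those of Upf1-201, which held 93.4% of the counts of Upf1 in Tardbp 1 and 6.11 to 24.8% in the others with that guide. Its level there was 27.8 CPM. In Control 4 its share was 87.7%, beside 5.88 to 35.7% in the other controls. Smg9-205 was low in Control 7, at 0.955 CPM and 2.78% of the counts of Smg9, where the other controls had 4.44 to 5.74%.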

How the results depend on the processing

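Of the 5 called genes, Upf1, Upf3b, Smg5 and Smg8 stayed called without any single library, and 4 to 6 of the 9 genes were called (Smg1, Upf2 and Upf3a moved across the threshold). Of all genes 43.3 to 45.7% were called in these fits. With DESeq2, size factors in place of TMM, no filter, or numbers 1 to 3 against 4 to 8 as a block, the same 5 were called. In that order, 41.0%, 46.8%, 25.1% and 47.6% of all genes were called. With RNA concentration as a covariate 1 of 9 was called, with the letter 3, and with numbers 1 to 3 alone 0 by edgeR (3 at an unadjusted p under 0.05), where 3 libraries a group gave 1696 calls over all genes. The shares of all genes called were 16.2% with RNA concentration, 44.2% with the letter and 10.1% with numbers 1 to 3 alone. With numbers 4 to 8 alone, transcripts called went from 6 to 3. Of nodes, 3 differed by over 0.05 in Psi. With RNA concentration as a covariate Smg6 turned to −0.11. With numbers 1 to 3 alone, added after seeing the data, the nonsense-mediated decay percent turned to −0.128 points (exact p = 0.4) and the retained intron difference was 0.621 points (adjusted p = 0.2, where the smallest p is 0.1). The cause was not tested.

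The replicate numbers were not shown to pair the samples: same-number correlations of deviations were −0.005 to 0.160, and only numbers 1 and 5 correlated best with their own number. With the replicate block 4 of 9 genes were called (Smg1 at an adjusted p of 0.0681) and 4 transcripts of 27, while 0 shares and 0 exons were called, as without it. Of all genes 45.9% were called with that block. No paired fit was made of the percents of counts or of Psi. Estimated counts limit transcripts with few counts, such as Smg5-205.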

Other observations

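Beyond Smg5-205, of the 450 tested transcripts with TGTGTGTGTGTG in the first exon, 70 (15.6%) were higher and 18 (4.0%) lower in Tardbp gRNA by edgeR at an adjusted p under 0.05, with a median log2 fold change of 0.295. Of all 40886 tested transcripts with a sequence, 8.49% were higher and 8.14% lower, with a median of 0.06. Of the 5419 with the shorter TGTGTG in the first exon, 11.9% were higher and 6.46% lower, with a median of 0.183. Of the 450, 5 had a first exon of 100 to 200 bases, beside 28.0% of all tested transcripts. Neither first exon length nor transcript class was adjusted for. By class, 936 of 8880 retained intron transcripts were higher and 127 lower, while 1561 of 22063 protein-coding transcripts were higher and 2847 lower. In the annotation class processed transcript, that of Smg5-205, 280 of 3124 were higher and 53 lower, with a median of 0.226. A part of the motif in these differences was not tested.

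Across 7520 genes above a mean log2 CPM of 4, log2 fold changes were lower for longer main transcripts (Pearson r = −0.326 across genes, which are not independent replicates) and hardly related to GC content (r = 0.0307). Among the 9 factors, Smg1 has the longest main transcript (15557 bases) and was higher, and Upf3b (2344 bases) was higher too, while Upf1 (4518 bases), Smg5 (4448 bases) and Smg8 (3218 bases) were lower.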
